A study of Homo sapiens with 8 samples.

Results

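Transgenic HEK293T cells that carry an amber suppression system were compared with plain HEK293T cells while both were supplied with the amino acid that the system uses. HEK293T cells derive from human embryonic kidney and make the large T antigen of SV40. The transgenic cells are HEK293T cells with a stably integrated tRNA of the Mb pyrrolysine pair (Mb pyltRNA). The data also hold entries for a pyrrolysyl-tRNA synthetase and a GFP39 reporter. Both groups received NAEK, an azide-bearing lysine derivative, at 1 mM. The comparison takes 2 transgenic and 2 HEK293T libraries, 4 of the 8 libraries in all, chosen by line and treatment and not by any measured value. The other 4 libraries are the same lines without NAEK and serve here as a reference level. The labels do not say whether the transgenic line is 1 clone or whether the replicates were cultured apart, so every p-value below reflects how far these samples spread, which may be technical.

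In an amber suppression system the synthetase attaches the supplied amino acid to its tRNA, whose anticodon reads the stop codon UAG. Ribosomes that meet a UAG can then insert the amino acid and go on into the 3' untranslated region until they reach the next stop codon in frame, in competition with the release factors that end translation. Nonsense-mediated decay is the pathway that degrades mRNAs whose stop codon lies well upstream of an exon junction or of the 3' end. In ribosome profiling the stretches of mRNA that a ribosome shields from nuclease are sequenced, which shows where on an mRNA ribosomes lay.

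Footprint density was given in RPKM, reads scaled to the length of a region and to the total of the library, in the coding region and in a first and a second extended region of each transcript. The extended regions were read as the stretch behind the stop codon and the stretch behind the next stop codon, a definition that the sources used here do not spell out. Densities in an extended region are given below in percent of the coding density of the same transcript, called the extended ratio. Without the 2 transgene entries there were 82584 transcripts, of which 65001 were of the protein-coding type. A further 17577 were typed as nonsense-mediated decay and 6 as non-stop decay. Whole reads could be recovered from the RPKM, and 30505 transcripts averaged 50 or more coding reads over the 8 libraries. Of these, 7800 held at least 10 first extended reads and 3237 at least 10 second extended reads over the 8 libraries, and ratios of single transcripts were compared in those. First extended ratios were compared in 6083 protein-coding and 1717 decay transcripts. Second extended ratios were compared in 1674 and 1563. The files carry transcript identifiers and no gene names, so transcripts are described by their type, region length and density. Neither the stop codon nor the gene of a transcript could be looked up, and marker genes of the line were not checked.

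The transgenic libraries held 17211388 and 12923243 reads and the HEK293T libraries 20569590 and 16197846. Endogenous coding regions took 88.1% of reads in both transgenic and 89.1% in both HEK293T libraries. The synthetase coding region, which checks the labels, had 5565 and 5615 RPKM in the transgenic and 7.24 and 9.67 RPKM in the HEK293T libraries. Intervals and floors below cover counting error only, because PCR copies are not independent molecules. Isoforms of a gene can share a stop codon and divide its reads, so a number of transcripts is not a number of genes. The sources used here do not say how the authors placed reads that fit several isoforms.

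Summed over all protein-coding transcripts, footprints behind the stop codon did not differ between transgenic and HEK293T cells with NAEK beyond the spread of their libraries. First extended reads amounted to 0.625 and 0.612% of coding reads in the transgenic libraries and to 0.619 and 0.611% in the HEK293T libraries. The groups overlapped, with means of 0.619 ± 0.00935% and 0.615 ± 0.00607% (SD, n = 2), and the exact two-sided permutation test gave p = 0.667. With 2 libraries against 2 the exact permutation test cannot go below p = 0.333. A few transcripts weighed heavily in these sums. The 10 transcripts with the most first extended reads held 20.1% of them in transgenic and 23.8% in HEK293T cells. Without those 10, the shares were 0.493 and 0.4999% in transgenic and 0.453 and 0.492% in HEK293T libraries, and the groups stood apart (exact permutation p = 0.333). Without NAEK the order was the other way round. All protein-coding transcripts then gave 0.534 and 0.551% in transgenic and 0.577 and 0.569% in HEK293T libraries, without overlap, a difference of -0.0306 percentage points. It was -0.0421 percentage points without the 10 (exact permutation p = 0.333 for both).

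Regions behind the annotated stop of transcripts typed as nonsense-mediated decay held many more footprints, and there the lines stood apart by a small amount. Where such a region also fits another isoform, its reads need not come from the decay transcript, which was not tested. First extended reads came to 9.24 and 9.26% of coding reads in the transgenic libraries and to 9.07 and 9.11% in the HEK293T libraries. They differed by 0.156 percentage points, more than the replicates of either line, and did not overlap (exact permutation p = 0.333). Counting error was of the same order, since the 95% interval of transgenic replicate 1 began at 9.17% and that of HEK293T replicate 2 ended at 9.18%. Without NAEK the transgenic libraries stood at 9.05 and 8.96% and the HEK293T libraries at 9.06 and 9.09%, a difference of -0.0704 percentage points that lay within counting error for replicate 1 of each line.

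On its own transcript a ribosome reaches second extended regions only past a further stop codon. Summed over each type, these regions showed no separation of the lines. In protein-coding transcripts they held 0.245 and 0.255% of coding reads in transgenic and 0.277 and 0.253% in HEK293T libraries (exact permutation p = 0.667). In decay transcripts they held 8.84 and 8.76% against 8.81 and 8.69% (exact permutation p = 0.667). The widest 95% counting interval of a first extended share reached 0.00478 percentage points to either side in protein-coding and 0.0786 in decay transcripts. Counting error was thus below the SDs between replicates in the former and above those in the latter, 0.00967 and 0.0281.

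**Figure D1:**
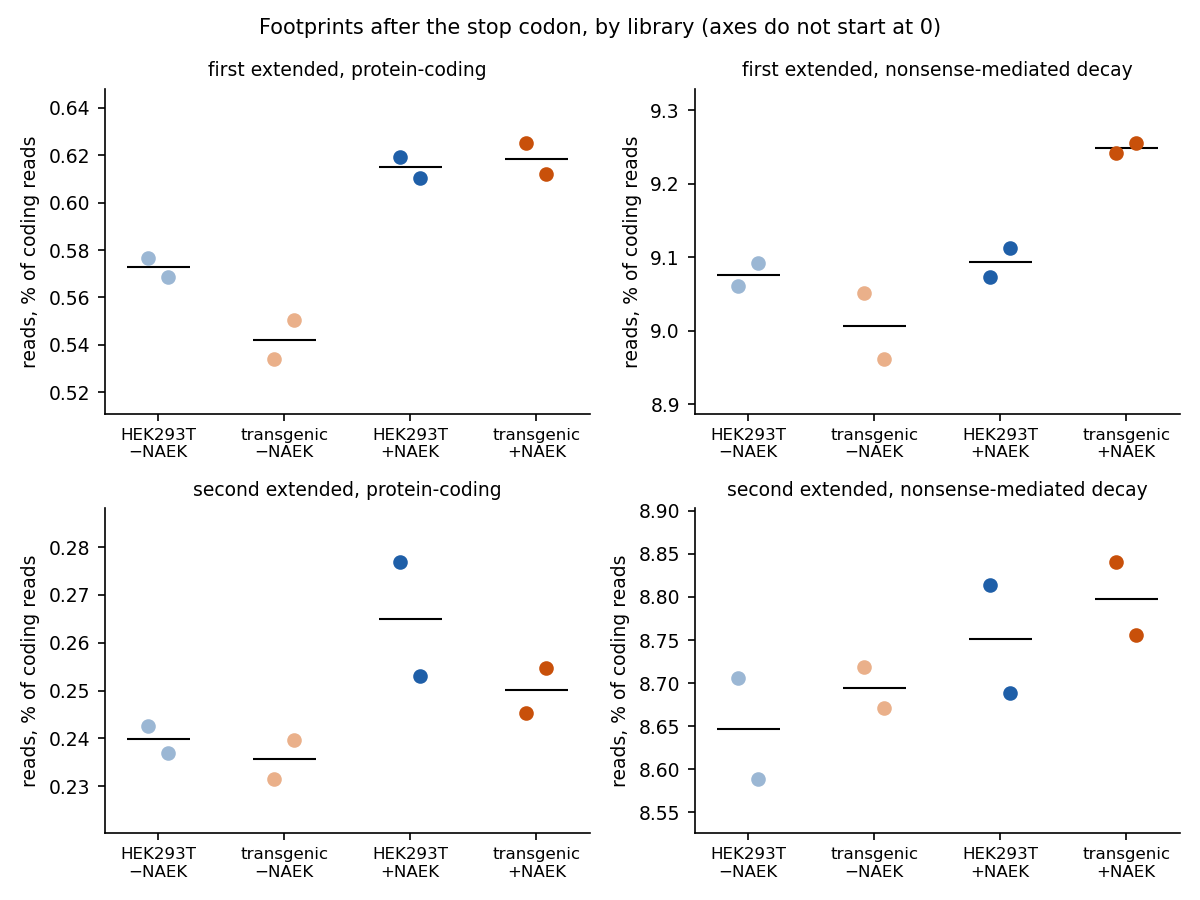
Reads in the first (top) and second (bottom) extended regions in percent of coding reads, summed over protein-coding (left) and nonsense-mediated decay transcripts (right). Each point is 1 library, lines are means of 2 libraries, and the y axes do not start at 0; in first extended regions of decay transcripts both transgenic libraries with NAEK, at 9.24 and 9.26%, lie above both HEK293T libraries with NAEK, at 9.07 and 9.11%.

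Behind nearly equal sums, ratios of single transcripts stood apart in both directions. Libraries that differ only at random would, 2 against 2, stand apart in a share of up to 0.333 of transcripts, both directions together. The counts below were not tested against that share. Of 7800 first extended ratios, 1702 (21.8%) were higher in both transgenic libraries than in both HEK293T libraries and 1713 (22%) were lower in both. Without NAEK, 901 were higher and 1566 lower. Among protein-coding transcripts 1395 of 6083 were higher (22.9%) and 1363 lower (22.4%) with NAEK, against 661 and 1306 without it. Among decay transcripts 307 of 1717 were higher (17.9%) and 350 lower (20.4%) with NAEK, against 240 and 260 without it. The median log2 difference was -0.06 in protein-coding and -0.04 in decay transcripts. No test compares the counts with and without NAEK. With 1 library left out, the 3415 transcripts without overlap became 5391 to 5670, because fewer values then have to stand apart.

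Large differences were seen in both directions, but at different region lengths in protein-coding transcripts. Folds here are differences of mean log2 ratios with 1 RPKM added to both densities. A difference of at least 8-fold, with no overlap, was seen for 60 of 6083 protein-coding transcripts in the higher direction. In the lower direction there were 73. At least 4-fold differences numbered 246 and 206. In the 1415 regions of at most 30 nt, 14 were higher and 69 lower by at least 8-fold, and 32 and 162 by at least 4-fold. In the 3307 regions over 60 nt, 36 were higher and 0 lower by at least 8-fold, and 152 and 6 by at least 4-fold. Of 1717 decay transcripts 1 was higher and 10 were lower by at least 8-fold. The types differed in coverage, with a median of 13 first extended reads over the 4 libraries in protein-coding and 40 in decay transcripts, and they were not compared. A minimum of 50 first extended reads summed over the 4 libraries can be met through the transgenic libraries alone, so the counts above it are a description. Of 875 protein-coding transcripts above it 210 were higher and 248 lower, 35 were higher and 2 lower by at least 4-fold, and 14 and 0 by at least 8-fold. Of 771 decay transcripts above it 141 were higher and 183 lower, and none differed by 8-fold.

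**Figure D2:**
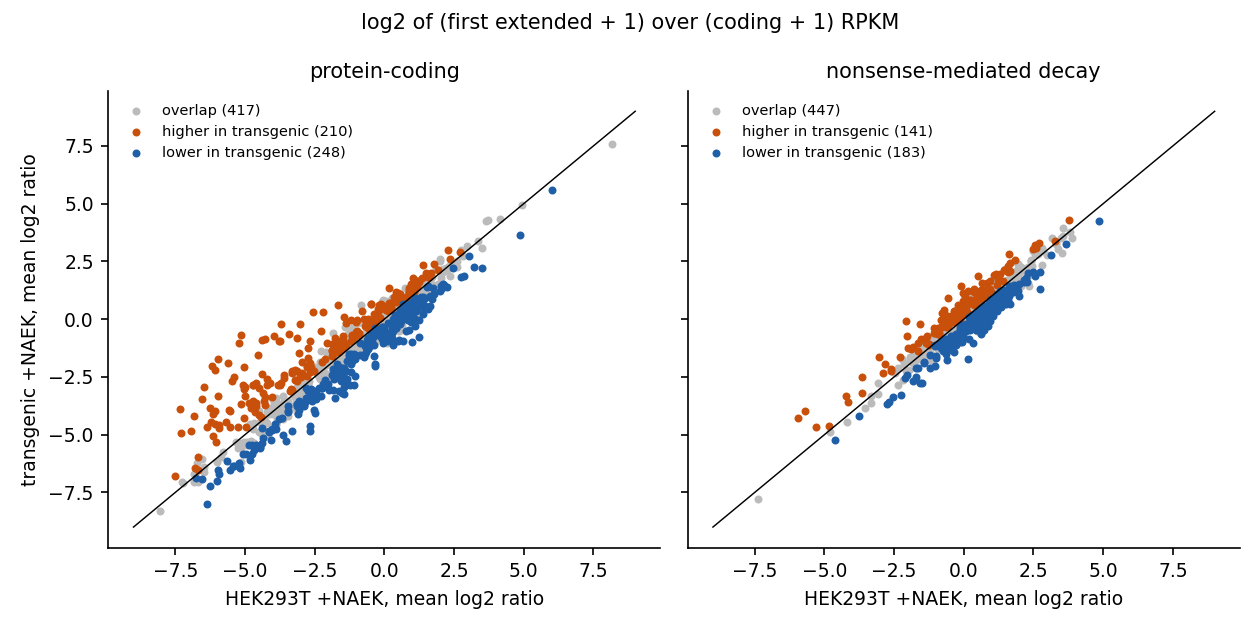
Log2 of the first extended over the coding density, with 1 RPKM added to both, as the mean of the 2 transgenic libraries (y) against that of the 2 HEK293T libraries (x) with NAEK, in a panel for each transcript type and 1 point per transcript. Orange points are higher and blue points lower in both transgenic libraries than in both HEK293T libraries, grey points overlap, and the line marks equality. Only transcripts with at least 50 first extended reads in the 4 libraries are drawn, and 210 of 875 protein-coding ones are higher and 248 lower, the higher ones farthest from the line where the HEK293T ratio is low.

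The direction of the difference followed the length of the first extended region, the distance to the next stop codon. In protein-coding transcripts with regions of 1 to 15 nt, 55 of 664 ratios were higher in both transgenic libraries (8.28%) and 201 were lower (30.3%). With regions of 16 to 30 nt the shares were 12.5 and 30.4% of 751 transcripts, and with 31 to 60 nt 19.0 and 24.98% of 1361. The order turned above 60 nt. With regions of 61 to 150 nt, 26.3% of 2098 transcripts were higher and 19.4% lower, and with over 150 and up to 300 nt 33.0 and 17.1% of 952. With regions over 300 nt, 122 of 257 were higher (47.5%) and 25 lower (9.73%). The median log2 difference went from -0.53 in the shortest class to 0.20 in the longest. The minimum of 10 reads behind these classes can be met through 1 group alone, so they too are a description.

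Without NAEK, lower ratios also outnumbered higher ones in short regions. Of the regions of 1 to 15 nt, 8.58% were higher and 23.6% lower. Regions of 61 to 150 nt were higher in 10.5% and lower in 21.4%. For regions over 300 nt the shares without NAEK were 14.8% higher and 13.2% lower. The difference between the counts with and without NAEK was not tested.

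Summed reads ran the same way in the shortest regions and in the longest ones. Over regions of 1 to 15 nt, first extended reads were 0.377 and 0.384% of coding reads in transgenic and 0.476 and 0.562% in HEK293T libraries with NAEK. Without NAEK they were 0.402 and 0.438% against 0.5005 and 0.505%. Both transgenic libraries lay below both HEK293T libraries in either state. Over regions of more than 300 nt they were 2.20 and 2.19% in transgenic and 1.90 and 1.78% in HEK293T libraries with NAEK, without overlap. Without NAEK, at 1.58 and 1.68% against 1.55 and 1.58%, the libraries of the lines overlapped. Regions of 61 to 150 nt held 1.47 and 1.46% in transgenic and 1.27 and 1.36% in HEK293T libraries with NAEK, without overlap, and 1.27 and 1.26% against 1.32 and 1.32% without NAEK. The class of over 150 and up to 300 nt overlapped with NAEK, at 2.51 and 2.35% against 3.14 and 2.40%. Grouped more broadly, regions of at most 30 nt held 0.584 and 0.525% of coding reads in transgenic and 0.610 and 0.625% in HEK293T libraries, without overlap. Regions over 60 nt held 1.80 and 1.76% against 1.82 and 1.68%, with overlap. Each comparison without overlap has an exact permutation p of 0.333.

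**Figure D3:**
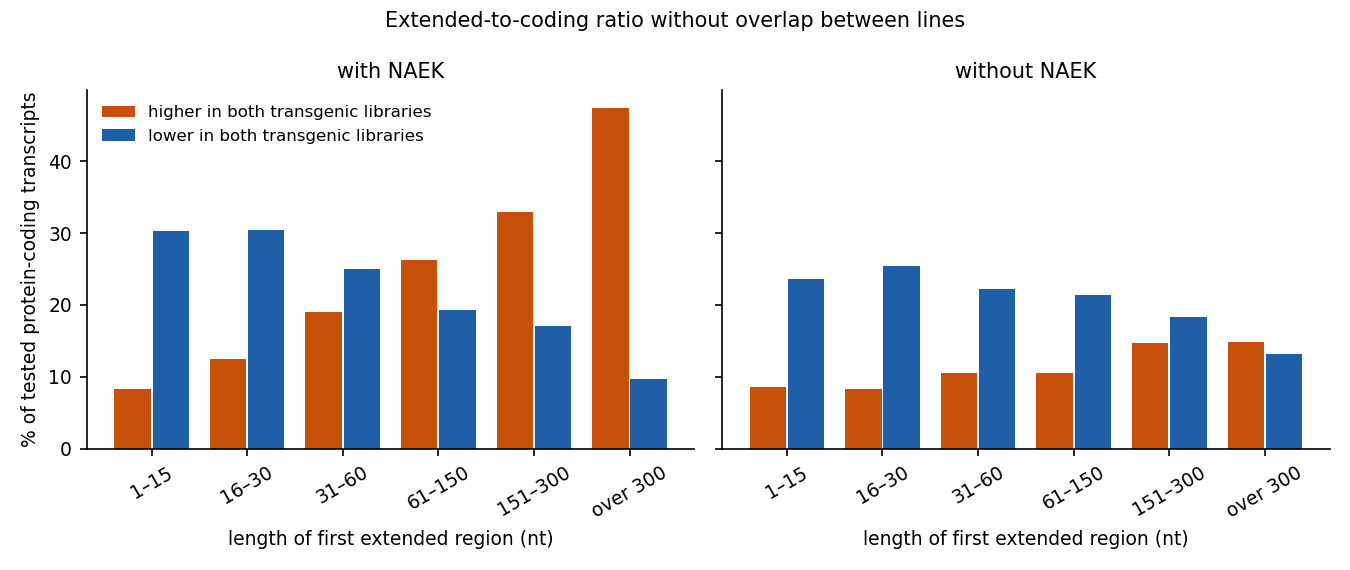
Percent of tested protein-coding transcripts whose first extended ratio was higher (orange) or lower (blue) in both transgenic libraries than in both HEK293T libraries, by length of the region in nt, with NAEK (left) and without it (right). With NAEK the higher share goes from 8.28% at 1 to 15 nt to 47.5% over 300 nt and the lower share from 30.3 to 9.73%.

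In decay transcripts, too, short regions had more lower than higher ratios. With regions of 1 to 15 nt, 13.9% of 230 were higher and 23.9% lower. With regions over 300 nt, 17.5% of 126 were higher and 23.0% lower. Only the class of over 150 and up to 300 nt had more higher than lower ratios, 23.0 against 14.7% of 217. The sums of reads stood apart in that class, at 32.4 and 34.0% of coding reads in transgenic and 29.9 and 30.9% in HEK293T libraries with NAEK. They did so in regions of 61 to 150 nt too, at 11.2 and 11.4% against 10.1 and 9.88%. Over all regions of more than 60 nt, first extended reads came to 25.1 and 25.3% of coding reads against 23.4 and 23.0%, a difference of 2.01 percentage points without overlap (exact permutation p = 0.333). Without NAEK the lines overlapped there, at 23.2 and 22.3% against 22.9 and 22.3%. The difference between transcript types was not tested.

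Transcripts with hardly any footprints behind the stop codon without NAEK reached 5% of the coding density with NAEK in larger number in the transgenic than in the HEK293T libraries. They were chosen on the 4 libraries without NAEK alone, as protein-coding transcripts that averaged 1000 or more coding reads there, 1 or more first extended reads and a first extended ratio below 2%. The rule used none of the libraries compared and both lines equally, and it left 1126 transcripts. With NAEK, 111 and 122 of them had a ratio of 5% or more in the transgenic libraries, against 33 and 46 in the HEK293T libraries. Both transgenic libraries reached 5% in 67 transcripts, or 5.95% (exact 95% interval 4.64 to 7.50%). Both HEK293T libraries did so in 8, or 0.710% (0.307 to 1.40%), and no transcript reached 5% in all 4. These intervals take transcripts as independent, which isoforms are not, and do not cover the spread between libraries. Per library the groups stood apart (exact permutation p = 0.333).

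Higher levels were reached by fewer transcripts of either line. A first extended ratio of 10% or more was found for 40 and 41 transcripts in the transgenic and for 4 and 11 in the HEK293T libraries, and in both libraries of a line for 23 and for 1. A ratio of 20% or more was found for 9 and 13 transcripts against 0 and 1. In both libraries of a line it was found for 6 transcripts in transgenic cells and for 0 of 1126 in HEK293T cells, which allows a share of up to 0.266%. Summed over the 1126, first extended reads were 0.148 and 0.159% of coding reads in transgenic and 0.0992 and 0.111% in HEK293T libraries. Without NAEK, where the set was chosen, these sums were 0.0871 and 0.0826% against 0.0972 and 0.0995%.

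**Figure D4:**
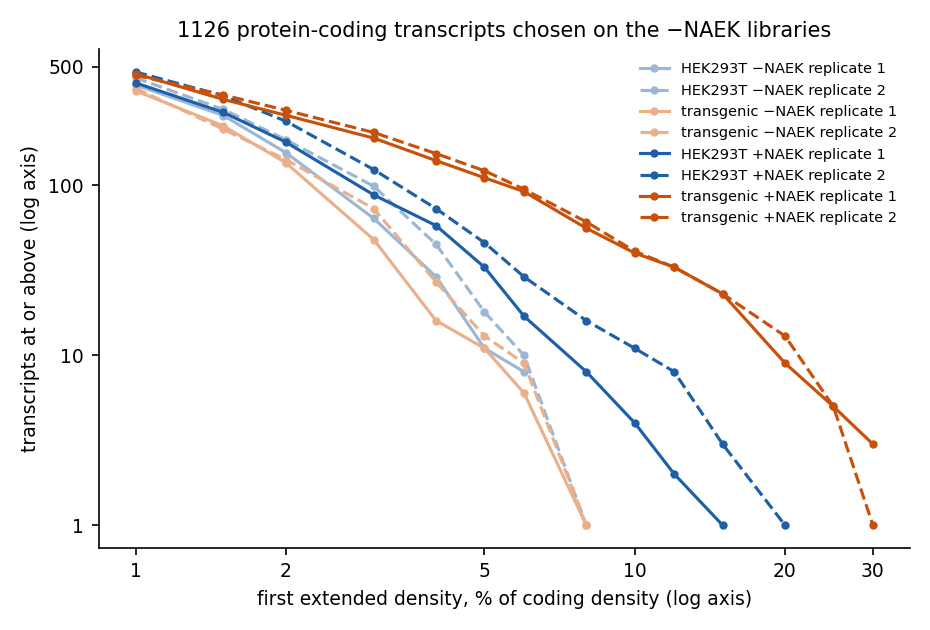
Number of the 1126 chosen transcripts at or above a first extended density given in percent of the coding density, by library, both axes logarithmic, with counts of 0 left out. The transgenic libraries with NAEK, at 111 and 122 transcripts for 5%, lie above the HEK293T libraries with NAEK, at 33 and 46; the libraries without NAEK chose the set.

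Some of these transcripts may be isoforms with 1 shared stop. Transcripts with the same region length and coding densities within 1.2-fold of the next were grouped as such, which put the 1126 transcripts into 532 groups and the 67 into 46. One group of 9 transcripts shared a region of 72 nt, with coding densities of 62.5 to 75.02 RPKM without NAEK, and another of 5 shared a region of 114 nt. Keeping only the transcript with the most coding reads in each of the 532 groups, 30 (5.64%) reached 5% in both transgenic libraries and 1 (0.188%) in both HEK293T libraries.

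The 67 regions at 5% or more in both transgenic libraries had a median length of 93 nt, from 21 to 228 nt, close to the 84 nt of all 1126. Of the 67, 65 did not overlap the HEK293T libraries with NAEK. Limma tested 63 of them and called 3, against 14 of all 7800 ratios (0.179%), and 55 had an unadjusted p below 0.05. The choice at 5% in transgenic libraries favours such calls. Some regions were thin, and that of 21 nt held 1 read in each transgenic library. Their first extended ratio in the transgenic libraries with NAEK ran from 5.06 to 43.8% with a median of 9.998%, values that the threshold chose. In the HEK293T libraries with NAEK the same transcripts ranged from 0 to 14.3% with a median of 0.919%. Their first extended reads numbered 1333 and 1036 in transgenic and 186 and 133 in HEK293T libraries. Behind the next stop there were 83 and 33 second extended reads in transgenic and 23 and 23 in HEK293T libraries.

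A further 438 protein-coding transcripts with at least 1000 coding reads had no first extended read at all without NAEK. With NAEK they held 149 and 98 first extended reads in the transgenic libraries and 73 and 87 in the HEK293T libraries. In 3 of them both transgenic libraries had at least 3 reads, and in 0 of them both HEK293T libraries did.

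Stops of protein-coding transcripts with a higher level without NAEK had more lower than higher single ratios, with NAEK and without it. Protein-coding transcripts at 2 to 10% of the coding density without NAEK were higher in both transgenic libraries in 152 cases and lower in 232 of 953 with NAEK, and in 71 and 228 without it. Those at 10 to 50% were higher in 42 and lower in 127 of 424 with NAEK, and in 31 and 102 without it. Those at 50% or more were higher in 10 and lower in 36 of 110 with NAEK, and in 8 and 35 without it. Summed reads with NAEK overlapped at 2 to 10%, with 0.266 and 0.264% of coding reads in transgenic and 0.241 and 0.279% in HEK293T libraries. At 10 to 50% they were lower in transgenic cells, at 0.483 and 0.464% against 0.558 and 0.627%. At 50% or more they were higher, at 6.36 and 6.03% against 5.68 and 5.71%. Region length moved with this level, with medians of 84 nt under 2%, 45 nt at 2 to 10%, 18 nt at 10 to 50% and 10.5 nt above, and their separate parts were not tested. Decay transcripts with NAEK had 4 higher and 4 lower of 16 at 2 to 10%, and 2 and 4 of 17 at 10 to 50%. At 50% or more they had 7 higher and 3 lower of 23.

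The transcripts with the largest ratios in favour of the transgenic cells had regions of 60 to 204 nt and ratios of at most 11.5% in every other library. They were taken as the first 14 without overlap and with at least 50 first extended reads in the 4 libraries with NAEK, in order of the log2 difference. All 14 were protein-coding. That they lie above the HEK293T libraries with NAEK follows from the choice, to which the read minimum adds, and in all 14 both transgenic libraries with NAEK also lay above the 4 libraries without NAEK. ENST00000264954, with a region of 87 nt, led the order. Its first extended density was 75.2 and 51.0% of the coding density in the transgenic libraries, from 105 and 46 reads. In HEK293T cells with NAEK it was 1.59 and 2.41%, from 3 and 4 reads. Without NAEK it was 5.61 and 2.23% in transgenic and 0 and 3.92% in HEK293T libraries. Its log2 difference of 4.45 (SE 0.81) did not pass limma's test (Benjamini-Hochberg adjusted p = 0.0807).

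ENST00000253794, with a region of 93 nt, came next and did pass. It stood at 34.4 and 25.6% of the coding density, from 54 and 35 reads, against 0.973 and 0.552%, from 2 and 1 reads, in HEK293T cells. Without NAEK its libraries held between 0 and 3 reads. The log2 difference was 4.24 (SE 0.46, limma with Benjamini-Hochberg adjusted p = 0.0440). The third transcript had a region of the same 93 nt and a coding density of 128 RPKM in transgenic cells against 106 RPKM for ENST00000253794, so both may be isoforms that share reads. It stood at 33.2 and 17.6% against 0.493 and 0.525%.

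The best covered of the 14 had a region of 204 nt, with 171 and 190 reads in the transgenic and 9 and 7 in the HEK293T libraries. Its ratio was 21.8 ± 2.92% in transgenic and 1.02 ± 0.151% in HEK293T cells (SD, n = 2), a log2 difference of 3.89 (limma adjusted p = 0.0440). A region of 201 nt had the highest level, with 115 and 62.0% of the coding density in transgenic cells and 0 reads in both HEK293T libraries (limma adjusted p = 0.0510). The most densely translated of the 14, with mean coding densities of 913 RPKM in transgenic and 1055 RPKM in HEK293T cells, reached 7.54 and 5.79% behind its stop, against 0.587 and 0.474%. Of the 14 transcripts, 5 passed limma's test and the other 9 had adjusted p of up to 0.130.

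**Figure D5:**
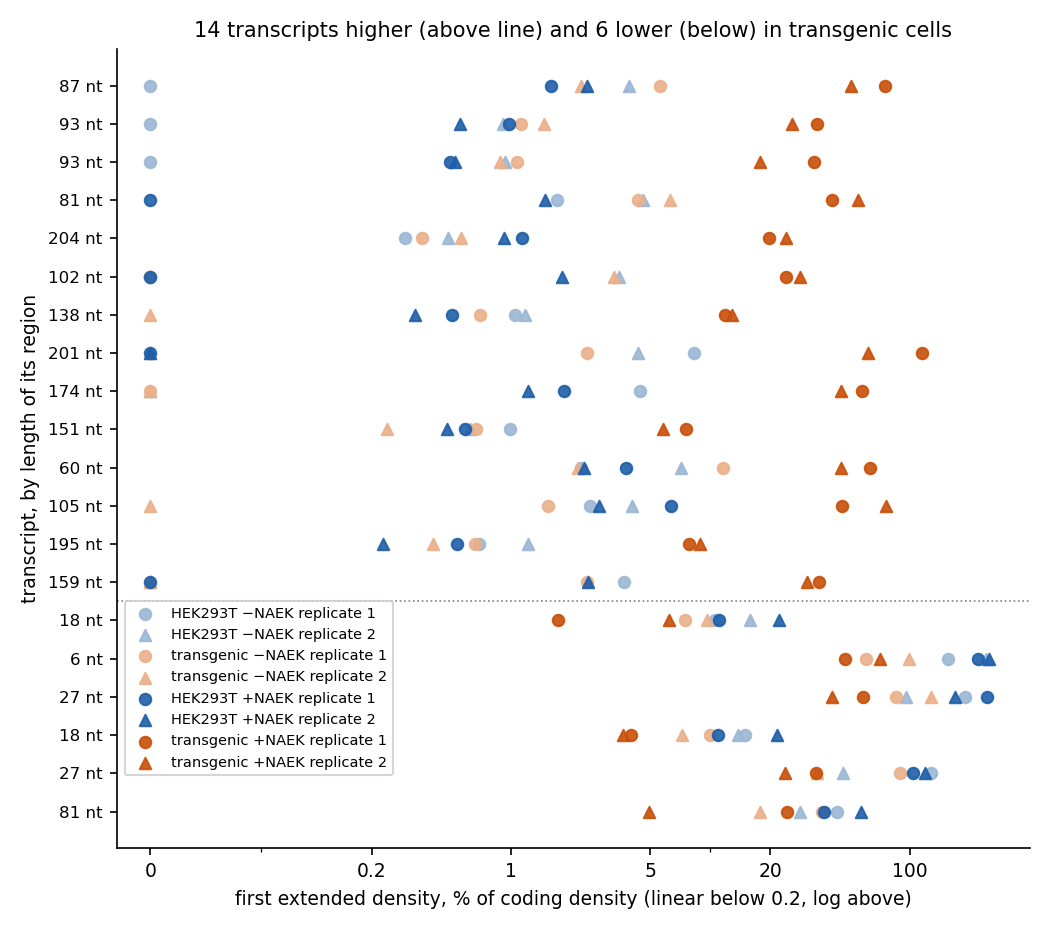
First extended density in percent of the coding density (x, linear below 0.2 and logarithmic above) for the 14 transcripts with the largest higher and the 6 with the largest lower ratio in transgenic cells, each listed by its region length in nt. Points are libraries, circles replicate 1 and triangles replicate 2; for the 14 higher transcripts both transgenic libraries with NAEK lie above all 6 others, above those with NAEK by choice.

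Transcripts at the other end had short regions and smaller differences. The first 6 lower ones, under the same minimum, had regions of 6 to 81 nt, and 5 of the 6 were protein-coding. ENST00000216281, with a region of 18 nt and a coding density of 559 RPKM in transgenic cells, stood at 1.72 and 6.21% of the coding density from 3 and 8 reads. In HEK293T cells it stood at 11.01 and 22.1% from 20 and 39 reads. The log2 difference was -2.18 (SE 0.68, limma adjusted p = 0.224). Another transcript of the 6 had a region of the same 18 nt and a coding density of 478 RPKM, so both may be isoforms that share reads. ENST00000401447, with a region of 6 nt, stood at 47.2 and 71.1% from 4 and 5 reads, against 221 and 250% from 25 and 24 reads in HEK293T cells. Its log2 difference was -2.002 (SE 0.42, limma adjusted p = 0.106). In both transcripts the transgenic libraries lay below the HEK293T libraries with NAEK. Without NAEK both also read lower in the transgenic libraries, the first at 7.42 and 9.62% against 10.6 and 15.8% and the second at 60.4 and 99.0% against 155 and 240%. None of the 6 passed limma's test, with adjusted p from 0.106 to 0.313.

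Over all 7800 first extended ratios limma called 14 (0.179%) at an adjusted p below 0.05, 9 higher (0.115%) and 5 lower (0.0641%), all on protein-coding transcripts, while 1064 had an unadjusted p below 0.05. The 9 higher ones had a median region of 93 nt and a median of 61 reads over the 8 libraries. The 5 lower ones had regions of 3 to 27 nt, 0 reads in both transgenic libraries with NAEK and 3 to 17 reads in the HEK293T libraries with NAEK. With either HEK293T library or transgenic replicate 2 left out no ratio passed, and with transgenic replicate 1 left out 7 lower and no higher ones passed. The voom test on recovered reads, which weights each value by its read count, called 238 higher and 38 lower. Of its higher calls 220 were on protein-coding transcripts, 3.62% of those tested, with a median region of 120 nt, and 18 on decay transcripts, 1.05% of those tested. Whether the difference between lines depended on NAEK was tested as an interaction. By limma 0 of 7800 passed and 623 had an unadjusted p below 0.05, and voom called 19.

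In extended density itself, not divided by coding density, limma called 110 higher (1.41%) and 26 lower (0.333%) first extended regions, 1.74% of 7800. Without either HEK293T library none was called, and without transgenic replicate 1 or 2 there were 77 and 13. A higher ratio mostly came with a higher extended density, a direction that the choice by the ratio favours. That choice also favours a lower coding density, so the counts below are a description. In 162 of the 210 better covered protein-coding transcripts with a higher ratio the extended density was also higher in both transgenic libraries, and in 73 (34.8%) the coding density was lower in both, against 28.6% of all 875. Of 248 lower ratios, 197 came with a lower extended density. In decay transcripts, 96 of 141 higher ratios came with a higher extended density and 39.0% with a lower coding density, against 19.6% of all 771 transcripts.

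Ratios of second extended regions stood apart between the lines at a similar rate in both directions. Here too, libraries that differ only at random would stand apart in a share of up to 0.333, both directions together. Of 3237, 620 (19.2%) were higher in both transgenic libraries and 672 (20.8%) lower. Protein-coding transcripts had 346 higher and 320 lower ratios, and decay transcripts 274 and 352. Limma called 1 higher (0.0309%) and 1 lower (0.0309%) ratio of 3237 (0.0618%), both on decay transcripts with thin regions, and none with any 1 of the 4 libraries left out. The higher one, of 24 nt, had 7 and 5 reads in transgenic and 0 in both HEK293T libraries, and the lower one, of 9 nt, had 0 in both transgenic and 3 and 2 in the HEK293T libraries. Voom called none, and 305 had an unadjusted p below 0.05 by limma. In second extended density limma called 1 region, a lower one (0.0309%). The largest higher ratio with at least 50 reads lay on a protein-coding transcript with a second extended region of 27 nt. It stood at 14.7 and 19.5% of the coding density, from 25 and 27 reads, against 2.86 and 0%, from 5 and 0 reads (log2 difference 4.12, limma adjusted p = 0.380). In the 4 libraries without NAEK this region held 0 to 2 reads.

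Second extended ratios were also counted in a set chosen without NAEK. Whether their reads come from passage of a second stop was not tested. Of 921 protein-coding transcripts whose second extended density was under 2% of the coding density there, 27 and 15 reached 5% in the transgenic and 13 and 10 in the HEK293T libraries. Both transgenic libraries reached it in 8 (0.869%) and both HEK293T libraries in 0, which allows a share of up to 0.326%. Of the 8 regions, 7 did not overlap the HEK293T libraries, but most were thin, with at most 4 reads in each transgenic library. Transgenic reads ran from 25 and 27 in the best covered region to 2 and 1 in the thinnest. The thinnest, of 51 nt, overlapped the HEK293T libraries, which held 3 and 1 reads. Only 1 transcript was both among these 8 and among the 67 first extended regions above, 12.5 and 1.49% of the lists. Another of the 8, ENST00000264954, led the order of first extended ratios above. Its first extended level without NAEK lay outside the choice under 2%. Its second extended density was 14.5 and 35.4% of the coding density in transgenic libraries, from 7 and 11 reads, against 0 and 1.75% in HEK293T libraries. Of the 79 first-higher transcripts above whose second extended region was tested, 21 (26.6%) had a higher second extended density too, against 60 of all 336 (17.9%), which include the 79. A lower one was seen for 13 of the 79 (16.5%) and for 75 of the 336 (22.3%). In decay transcripts 22 of 93 first-higher transcripts had a higher second extended density (23.7%) and 23 a lower one (24.7%), and 20.4% of all 539 had a higher one.

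The same choice among decay transcripts left 63 with a first extended density under 2%. With NAEK, 1 and 2 of them reached 5% in the transgenic and 0 and 1 in the HEK293T libraries. In both libraries of either line 0 of 63 did so, which allows a share of up to 4.76%. The 6 non-stop decay transcripts, whose mRNAs lack a stop codon in frame, held no extended read in any library.

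Few coding regions passed the test between the lines. Of 46154 coding regions with a mean of at least 1 RPKM, limma called 4 (0.00867%), all lower in transgenic cells, and 7204 had an unadjusted p below 0.05, where chance alone would give 2308. A coding region of 1326 nt held 3.99 and 3.68 RPKM in transgenic and 18.7 and 21.2 RPKM in HEK293T libraries (log2 difference -2.12, limma adjusted p = 0.00338). A region of 639 nt held 0.0909 and 0 RPKM against 2.51 and 2.22 RPKM (limma adjusted p = 0.0468). The other two, both of 309 nt, had nearly equal densities, with 97.4 and 112 RPKM in transgenic and 267 and 311 RPKM in HEK293T libraries for the first (limma adjusted p = 0.0106). They may be isoforms or copies that share reads. All 4 were lower in both transgenic libraries without NAEK as well. Without HEK293T replicate 2 no coding region was called, and without transgenic replicate 1 there were 2. Under voom, 355 coding regions were higher and 574 lower.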

How the data were processed

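Ribosome footprints of 8 libraries were prepared by TruSeq Ribo Profile, per the labels' protocols. The submitters' processing notes list Bowtie 1.2.2 and the build hg38, without their role. The authors deposited RPKM of coding, first and second extended regions, by library, per the file headers. Annotation and read filters were not stated there.

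Each RPKM of a region is a whole number of equal steps, 1 per read, from which reads and region lengths were recovered. A length was accepted only if all its reads came out whole within 0.01 reads. That 100.0% of values above 0 did so therefore follows from the method and does not check the recovery. The shortest length that fits was kept, so thin regions can be underestimated. Shares used recovered reads. Ratios of single transcripts were tested with limma 3.58.1 in R 4.3.3 on log2 of (extended + 1) over (coding + 1) RPKM, a scale that understates changes of low values. The fit held all 8 libraries, a variance trend and 4 residual degrees of freedom, with Benjamini-Hochberg adjustment at 0.05. The transgenes stayed in the fit and out of the counts. A floor is 3 reads, and for a count of 0 transcripts it is 3 of those counted. Single transcripts are described by the rule given in the report, with every transcript past limma's ratio test summarised beside them. The rule's choice of 1 transcript per gene, its gene lists and the marker check could not be applied. Settings are compared in the closing section. Both steps were tested on simulated data. The comparison, lists and minimums were chosen with earlier results of these data known. Other steps used numpy 2.4.6 and scipy 1.17.1 with pandas 2.3.3 and, for the plots, matplotlib 3.10.9, under Python 3.11.15.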

Additional observations from a re-analysis of the deposited data

Results flagged for a closer look

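The difference between lines in the first extended share of nonsense-mediated decay transcripts changed sign with NAEK. With NAEK, transgenic minus HEK293T libraries gave 0.156 percentage points, with both transgenic libraries above both HEK293T libraries, at 9.25 ± 0.00967% against 9.09 ± 0.0281% of coding reads (SD, n = 2). Without NAEK it gave -0.0704 percentage points, with both transgenic libraries below both HEK293T libraries, at 9.01 ± 0.0637% against 9.08 ± 0.0225%. Counting intervals of 95% overlapped there, from 8.98 to 9.12% in transgenic replicate 1 and from 8.99 to 9.13% in HEK293T replicate 1. Without the 10 transcripts with the most reads the lines overlapped without NAEK, at 7.48 and 7.52% against 7.45 and 7.59%.

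The same change of sign was seen in 3 sums over protein-coding transcripts. Without the 10 transcripts with the most first extended reads, the line difference was 0.0244 percentage points with NAEK and -0.0421 without it. In regions of 61 to 150 nt it was 0.149 and -0.0571 percentage points. In the 1126 transcripts chosen for a low level without NAEK it was 0.0481 and -0.0135 percentage points, the latter in the libraries that chose them. In each, both transgenic libraries lay above both HEK293T libraries with NAEK and below both without it. None of these differences between differences was tested.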

How the results depend on the processing

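Counts of called ratios and densities moved under nearly every setting tried, while differences of summed shares kept their sign in most. First extended ratio calls, 14 in the report, were 45 with a pseudocount of 0.1 RPKM, 42 with 5 RPKM, 36 with no variance trend, 0 with only the 4 libraries with NAEK, 50 with no read minimum, 46 with at least 50 reads, 276 under voom and 0 to 7 with 1 library left out. Second extended ratio calls, 2 in the report, were 9 with a pseudocount of 0.1 RPKM, 16 with no read minimum, and 0 with 5 RPKM, with 4 libraries, with at least 50 reads, under voom and with any library left out. First extended density calls, 136 in the report, were 24 and 256 with the 2 pseudocounts, 62 with no trend, 0 with 4 libraries, 1 with no read minimum, 76 with at least 50 reads, 349 under voom and 0 to 77 with 1 library left out. Second extended density calls, 1 in the report, were 10 and 0 with the 2 pseudocounts, 0 with 4 libraries, with no minimum and with at least 50 reads, 17 under voom and 0 to 3 with 1 library left out. Coding calls, 4 in the report, were 2 with a pseudocount of 0.1 RPKM, with no trend and with 4 libraries, 1 with no minimum, 929 under voom and 0 to 4 with 1 library left out. The cause of these moves was not tested, except that fewer libraries were fitted where one was left out.

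Replicate numbers of the groups are shared, but the labels do not say that they mark a batch, and deviations of same-numbered libraries correlated by 0.0107 in first extended ratios, 0.0935 in second extended ratios and 0.147 in coding densities. With the replicate number as a replicate block, calls numbered 0 for first and 0 for second extended ratios, 1 and 0 for the densities and 261 for coding regions. Comparing same-numbered libraries only, 4532 first and 1792 second extended ratios differed in 1 direction.

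The difference in the first extended share of protein-coding transcripts, 0.00368 percentage points, was -0.0437 with no minimum of coding reads, -0.0198 with at least 500 coding reads and -0.00293 to 0.0103 with 1 library left out, so it has no settled sign. That of decay transcripts stayed between 0.00995 and 0.196 under all 7 alternatives. The second extended share of decay transcripts, 0.0466, was -0.0619 with the 10 best covered transcripts left out and -0.0165 to 0.110 with 1 library left out. That of protein-coding regions over 60 nt, 0.0283, was -0.198 with no minimum, -0.0513 with at least 500 coding reads and -0.0457 to 0.102 with 1 library left out. Transcripts without overlap numbered 5273, 1227 and 2254 for first and 1963, 671 and 657 for second extended regions with no read minimum, at least 50 reads and at least a 2-fold difference. With 1 library left out they numbered 5391 to 5670 and 2149 to 2308.

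Alternatives for the set chosen without NAEK, for region lengths and for left-out libraries in counts without overlap were chosen after seeing the data. The share at 5% in both transgenic libraries, 5.95%, was 8.17% for stops under 5% of the coding density, 4.06% with at least 5 reads without NAEK, 3.53% with 1 transcript per region length and 9.86 to 10.8% in single libraries. That in both HEK293T libraries, 0.710%, was 3.31% under 5%, 0% under 1%, 0.188% with 1 transcript per length and like density, 0% with 1 per length and 2.93 to 4.09% in single libraries. Keeping 1 transcript per gene, and comparing stop codons, were not run, because no table used here pairs the identifiers with genes or codons. Thin regions limit all single ratios.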
